A study of Mus musculus with 6 samples.

Results

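The genes described are 10 imprinted genes of the mouse that lie outside the distal chromosome 7 and *Dlk1*-*Dio3* domains: *Peg3*, *Usp29*, *Zim1*, *Peg10*, *Sgce*, *Mest*, *Plagl1*, *Grb10*, *Peg13* and *Gnas*. They were chosen by name from 23420 gene symbols per file, with earlier results of these data known. All 10 were measured and tested. RNA was sequenced from 3 wild-type (WT) and 3 *Patz1* knockout (KO) libraries of E14 mouse embryonic stem cells (ESCs), all grown with LIF and the inhibitors PD0325901 (MEK) and CHIR99021 (GSK3). The KO was made in E14 cells with Cas9 and a guide to *Patz1*, the gene of a zinc finger protein that the study tests as a chromatin insulator. Which KO clone or clones gave the libraries was not given in the sources used here, so a change caused by the loss of PATZ1 and a change particular to a clone cannot be told apart. RNA was depleted of ribosomal RNA before stranded library preparation, and the files hold read counts per gene.

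Parental imprinting leaves some genes active mainly from the maternal or mainly from the paternal chromosome. DNA methylation set in the germ cells marks a control region, and zinc finger proteins such as ZFP57, with TRIM28 and the maintenance methylase DNMT1, keep that mark in the early embryo and in ESCs. Imprinted genes tend to lie in small domains, and many act in growth, placental function and metabolism. The counts sum the reads of both alleles, so they show the total RNA of a gene and not which allele it came from.

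The starts of the genes show the sequence setting of these domains, and those of the genes that the results turn on are printed 5′ to 3′ on the strand of the gene (RefSeq starts, GRCm38.p6). Capitals mark GGGGNGGGG, a G-rich run of the kind that PATZ1 and its relative MAZ are known to bind, and TGCCGC, the sequence that ZFP57 recognises when methylated, each searched on both strands, where TGCCGC reads GCGGCA on the other strand. Over 32851 mouse starts, 20.6% held GGGGNGGGG and 8.68% held TGCCGC in the 250 bases upstream. The median start held 6 CpG in those bases, with quartiles of 2 and 16. Entries were found for 7 of the 10 genes, 13 in all. The stretch before *Plagl1* (chr10:13090582-13090831, plus strand) held 19 CpG and 1 match to each motif, and that before *Mest* (chr6:30737800-30738049, plus strand), a gene whose level did not differ beyond its spread, is shown beside it with 14 CpG, 1 G-rich match and 2 matches to TGCCGC. Another *Mest* start, at chr6:30733256-30733505, held 7 CpG and neither motif. The stretch before the CpG-rich start of *Grb10* (chr11:12037421-12037670, minus strand) held 40 CpG and neither motif. *Gnas* had 4 start entries with 14 to 29 CpG. The only motif match among them, 1 G-rich run, lay before the entry of lowest coordinate (chr2:174284070-174284319, plus strand), which is shown. The other entries, between chr2:174327499 and 174330005, held neither motif. Which start gave the reads of *Gnas* was not measured.
Plagl1: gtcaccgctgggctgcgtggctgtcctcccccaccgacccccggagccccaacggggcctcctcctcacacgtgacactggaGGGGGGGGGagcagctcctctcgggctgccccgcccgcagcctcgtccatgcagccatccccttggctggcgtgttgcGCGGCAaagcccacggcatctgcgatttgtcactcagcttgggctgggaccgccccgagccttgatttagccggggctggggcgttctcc
Mest: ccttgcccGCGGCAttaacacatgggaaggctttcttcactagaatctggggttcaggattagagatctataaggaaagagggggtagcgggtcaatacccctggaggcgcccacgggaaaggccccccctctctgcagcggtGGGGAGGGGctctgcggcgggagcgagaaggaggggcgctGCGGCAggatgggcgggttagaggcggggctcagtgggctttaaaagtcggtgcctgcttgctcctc
Grb10: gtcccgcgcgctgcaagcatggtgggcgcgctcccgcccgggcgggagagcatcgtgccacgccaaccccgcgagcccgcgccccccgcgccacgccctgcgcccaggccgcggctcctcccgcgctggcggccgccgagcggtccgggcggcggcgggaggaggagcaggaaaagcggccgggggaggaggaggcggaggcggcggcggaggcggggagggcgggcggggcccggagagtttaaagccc
Gnas: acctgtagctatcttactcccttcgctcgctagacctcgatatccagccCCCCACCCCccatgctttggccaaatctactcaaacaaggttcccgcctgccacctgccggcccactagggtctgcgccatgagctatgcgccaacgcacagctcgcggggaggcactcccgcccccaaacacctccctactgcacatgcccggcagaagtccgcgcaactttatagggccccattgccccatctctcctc

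*Peg3* and *Usp29* point away from each other with 146 bases between their annotated bodies. A stretch of 96 bases there (chr7:6730463-6730558, shown on the plus strand of *Usp29*) is printed because both genes start beside it. Its 3 CpG are in capitals and it holds neither motif. *Peg13* had no start entry, so a part of its RNA is given instead (GENCODE M21, bases 201 to 400 of the 4725-base transcript, chr15:72809925-72810124, minus strand), the 200 bases with the most CpG. That window held 18 CpG and 3 matches to TGCCGC, which are in capitals. The whole RNA held 120 CpG, 6 matches to TGCCGC and 1 to GGGGNGGGG. Of the first 4725 bases of 8232 other transcripts at least as long, 2.14% held at least 6 matches to TGCCGC and 40.7% held at least 1 to GGGGNGGGG. These matches are letters in a window and not measured binding sites.
Peg3 and Usp29: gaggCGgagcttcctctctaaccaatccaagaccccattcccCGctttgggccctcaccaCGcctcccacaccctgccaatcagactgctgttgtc
Peg13: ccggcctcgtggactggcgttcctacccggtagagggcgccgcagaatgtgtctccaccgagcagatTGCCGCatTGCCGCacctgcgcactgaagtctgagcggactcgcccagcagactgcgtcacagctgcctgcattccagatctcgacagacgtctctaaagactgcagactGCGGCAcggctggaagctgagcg

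Before the genes themselves, the libraries were checked. Counts totalled between 37573923 and 47721070 in replicates 1 and 2 of each genotype, and 11040756 in WT and 11420268 in KO replicate 3, so replicate 3 gives low-count genes less precision. Replicate 3 also carried more *Rn45s*, the ribosomal RNA precursor, in both genotypes (12.5% to 14.4% of counts against 1.79% to 3.03%). Here and throughout, a value with ± is the mean and SD over the libraries of a genotype (n = 3), in normalized counts unless a ratio is named. *Patz1* mRNA stood at 1888 ± 82.3 (WT) and 859 ± 5.01 (KO), so that KO held 45.5% of the WT level (log2 fold change -1.14, SE 0.10, adjusted p = 1.58e-26). All 10 ESC markers looked at were tested, and 1 of them (*Dppa5a*) was higher in KO. Their summed level was 168676 to 178203 in WT and 190676 to 198291 in KO. Of the markers of other cells, 1 of 7 tested for primitive endoderm (*Dab2*) was higher, 1 of 5 for trophoblast (*Cdx2*, a call lost in 8 of 16 alternative fits) lower, 0 of 5 for neural cells changed with DESeq2 or edgeR (1 at an unadjusted p under 0.05 with DESeq2), and 1 of 3 for fibroblasts or feeder cells (*Thy1*, lost in 6 of 16) higher. The *Dab2* and *Dppa5a* calls were each lost in 2 of 16. The median log2 fold change of the tested markers was -0.17 for primitive endoderm, 0.25 for trophoblast, 0.05 for neural cells and -0.23 for fibroblasts. For primitive endoderm, trophoblast and fibroblasts this was opposite in sign to the named gene. The primitive endoderm list summed to 2146 to 2494 in WT and 1988 to 2230 in KO. The trophoblast list summed to 812 to 992 in WT and 657 to 924 in KO, so both overlapped. The fibroblast list summed to 86.4 to 111 in WT and 134 to 169 in KO. Of its 8 genes, 1 was at 0 and 3 at no more than 3 counts in every library. Only 1 had a mean of at least 50 normalized counts. The sum thus follows few genes and does not show a rise of the list as a whole. The part of these marker changes in the values below was not tested, and in bulk RNA fewer cells of a type and less RNA per cell cannot be told apart.

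Of the 10 imprinted genes, 4 were lower in KO (*Peg13*, *Grb10*, *Plagl1* and *Peg3*) and 1 was higher (*Gnas*) at an adjusted p under 0.05. The other 5 (*Usp29*, *Zim1*, *Peg10*, *Sgce* and *Mest*) did not pass the test. Across all 15309 genes tested, 7.49% passed, 4.78% in the direction of lower and 2.70% in the direction of higher. WT and KO libraries were fully separate for the same 5 genes that passed, and for 25.6% of all genes tested. The median log2 fold change was -0.21 over the 10 genes and 0.01 over all genes tested. Values are normalized counts, which are counts divided by the size factor of the library, given for replicates 1, 2 and 3 in that order. Fold changes are given as log2(KO/WT) and SE is their standard error. Tests are the two-sided Wald test of DESeq2 with Benjamini-Hochberg adjustment over all genes.

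**Figure D1:**
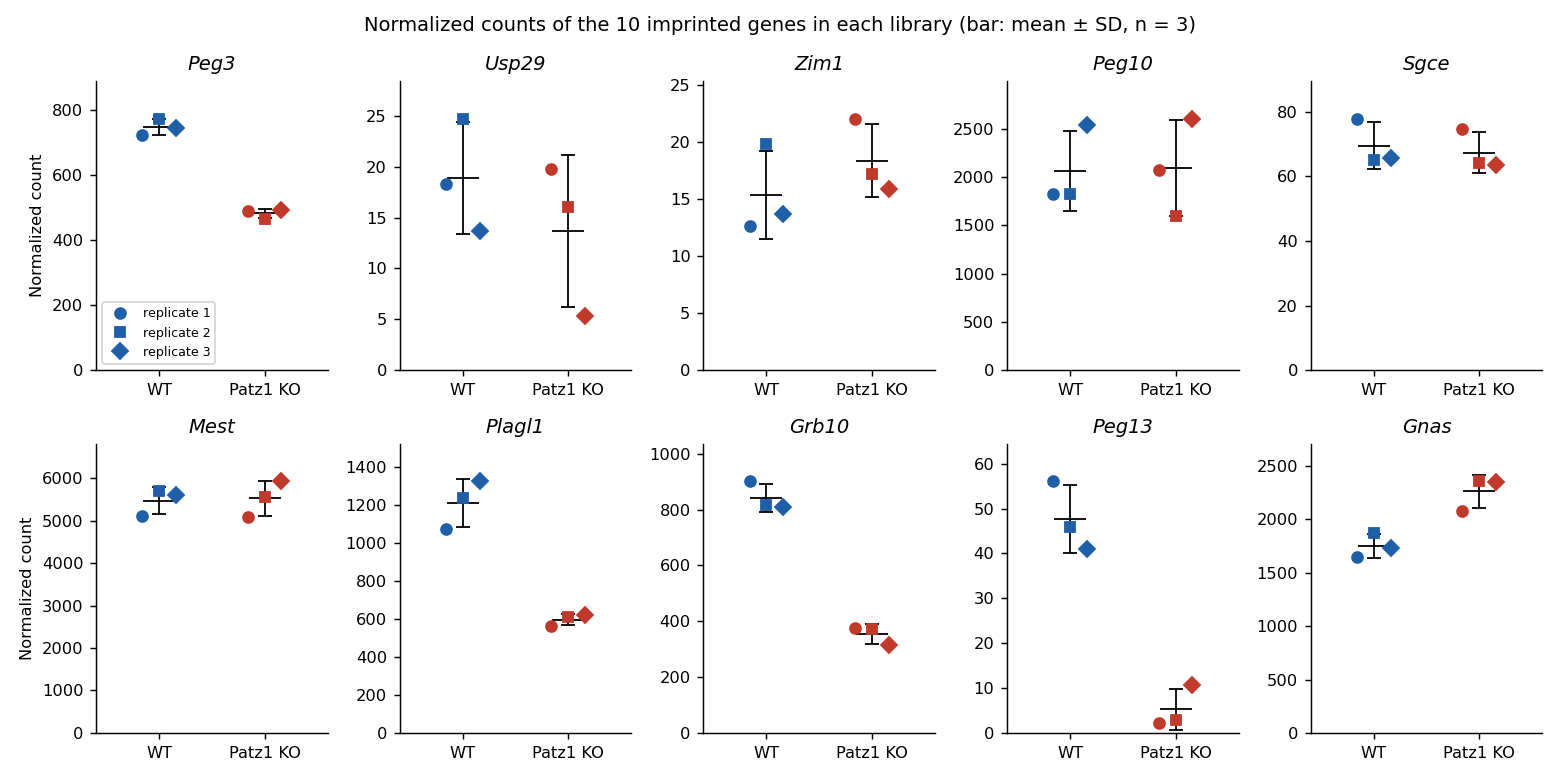
Normalized counts (y axis, linear from 0) of each of the 10 imprinted genes in the 3 WT (blue) and 3 *Patz1* KO (red) libraries, with the replicate number as the symbol and the mean ± SD as the bar. *Peg3*, *Plagl1*, *Grb10* and *Peg13* sit lower in every KO library than in any WT library, *Gnas* sits higher, and the other 5 genes overlap.

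*Peg13* showed the deepest fall of the 10. It is a paternally expressed noncoding RNA (ENSMUSG00000106847, chr15:72805600-72810324, minus strand) that lies inside an intron of *Trappc9* and on the same strand. WT libraries held 56.0, 45.9 and 41.1 normalized counts, and KO libraries 2.26, 2.97 and 10.6. In reads, these were 98, 65 and 15 in WT against 4, 5 and 4 in KO, so every KO library lay just above the floor of 3 counts used here, which is worth 1.69 to 2.12 normalized counts in the deep libraries and 7.93 to 8.21 in replicate 3. No KO library reached the lowest WT library. The WT mean of 47.7 ± 7.64 was 9.06 times the KO mean of 5.26 ± 4.61, or 18.3 times it without KO replicate 3, and with the reads of each genotype pooled (178 against 13) KO held 6.72% of the WT level. DESeq2 gave a log2 fold change of -3.70 (SE 0.58, 95% interval -4.84 to -2.56, adjusted p = 2.79e-08), and -4.29 to -3.27 over the alternative fits. Between the libraries of equal replicate number the difference was -4.13, -3.56 and -1.86, with the smallest in the shallow pair, where a single read weighs most.

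*Trappc9*, the host gene of *Peg13*, which encodes a subunit of a vesicle trafficking complex, did not show this fall. It was at 783, 741 and 898 normalized counts in WT and 719, 677 and 922 in KO, and the genotypes overlapped. A log2 fold change of -0.07 resulted (SE 0.14, 95% interval -0.35 to 0.21, adjusted p = 0.896). Reads of unspliced *Trappc9* RNA that cross *Peg13* would be counted to *Peg13*, and these files cannot separate them. *Kcnk9*, the maternally expressed potassium channel gene of the same domain, had 0 counts in every library. *Chrac1*, *Eif2c2* and *Ptk2*, the other tested genes within 500 kb, had log2 fold changes of 0.15, 0.17 and 0.12 and did not pass (0 of the 4 passed with DESeq2 or edgeR or had an unadjusted p under 0.05).

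*Grb10* encodes an adaptor that binds the insulin and IGF receptors and dampens their signal, and it is maternally expressed in most tissues (ENSMUSG00000020176, chr11:11930508-12038683, minus strand). WT libraries held 901, 818 and 808 normalized counts and KO libraries 374, 374 and 314. Every KO library lay well under every WT library. The KO mean of 354 ± 34.3 was 42.1% of the WT mean of 842 ± 51.1 (log2 fold change -1.23, SE 0.13, adjusted p = 6.37e-19). The 3 replicate pairs gave -1.27, -1.13 and -1.36.

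*Grb10* lies on chromosome 11, which was lower as a whole in KO. Over 961 genes of that chromosome with a mean of at least 50 normalized counts, the library median of log2 level, relative to the mean of each gene, was 0.22, 0.11 and 0.07 in WT and -0.12, -0.13 and -0.15 in KO. The genotypes did not overlap, and the difference was -0.27 (exact two-sided permutation p = 0.1, the smallest that 3 against 3 allows, and 0.15 after adjustment over the 6 chromosomes that hold these genes). On the other 5 chromosomes (2, 6, 7, 10 and 15) the difference lay between 0.0036 and 0.042, and on chromosomes 6, 10 and 15 the genotypes did not overlap either, with the same p of 0.1 (0.15 after adjustment), so that chromosome 11 stands apart by the size of its difference and not by its exact permutation p. Of those 961 genes, 90.7% had a log2 fold change below 0, and of the 1260 tested genes of chromosome 11, 20.2% were called lower. *Grb10* ranked 12th from the lowest, and the median gene was at -0.26. With the chromosome 11 genes of each library centred on a common level, the fall of *Grb10* was still -0.96 on the log2 scale (SE 0.12, adjusted p = 2.10e-12). *Patz1* lies on chromosome 11 too. What lowered the chromosome was not tested.

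**Figure D2:**
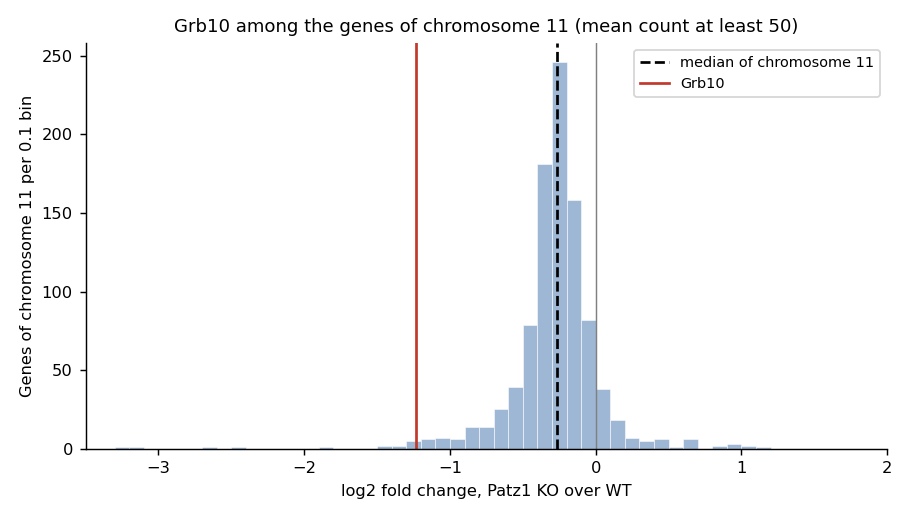
Number of chromosome 11 genes (y axis) in bins of 0.1 of log2 fold change of *Patz1* KO over WT (x axis), for 961 genes with a mean of at least 50 normalized counts, shown from -3.5 to 2. The dashed line is their median at -0.26, the grey line is 0, and the red line is *Grb10* at -1.23, in the lower tail.

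Neighbours of *Grb10* did not share the depth of its fall. *Ddc*, which encodes the enzyme that makes dopamine and serotonin from their precursors, and *Cobl*, which encodes an actin nucleator, both imprinted in some tissues, had log2 fold changes of -0.12 (adjusted p = 0.751) and -0.23 (adjusted p = 0.245). *Fignl1*, a DNA repair gene, had -0.19 (adjusted p = 0.310). With the replicate block *Cobl* and *Fignl1* passed as lower (adjusted p = 0.00172 and 0.0131), and with chromosome 11 centred as well their log2 fold changes were 0.04 and 0.08 and neither passed (adjusted p = 0.801 and 0.513). A transcript antisense to *Ddc* and 45.2 kb from *Grb10*, *1700042O10Rik*, rose instead, from 122 ± 23.1 to 194 ± 33.6 normalized counts (log2 fold change 0.66, adjusted p = 0.0290). It lies beyond the 3′ end of *Grb10*, inside the body of *Ddc* on the other strand. Whether counting used strand is not known, so reads of *Ddc* there cannot be told apart from its own. Its WT libraries (98.6 to 145) did not overlap its KO libraries (156 to 218). This call was lost in 6 of the 16 alternative fits, with edgeR (adjusted p = 0.0626) and without any of the WT replicates or KO replicates 1 or 2, and the adjusted p reached 0.322.

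*Plagl1* encodes a zinc finger transcription factor that restrains growth and is expressed from the paternal allele (ENSMUSG00000019817, chr10:13060504-13131694, plus strand). WT libraries held 1073, 1235 and 1323 normalized counts and KO libraries 563, 607 and 618. The highest KO library was under the lowest WT library. The WT mean was 1210 ± 127 and the KO mean 596 ± 29.2, or 49.3% of it (log2 fold change -1.02, SE 0.12, adjusted p = 3.30e-14). Of the 9 other genes tested within 500 kb, 0 passed under DESeq2 or edgeR and 0 had an unadjusted p under 0.05. Their log2 fold changes ran from -0.37 to 0.30 with a median of 0.11. The 2 nearest, *Ltv1* and *Sf3b5*, which act in ribosome assembly and splicing, had values of 0.12 and 0.20, and *Sf3b5* passed with the replicate block (adjusted p = 0.0341).

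*Peg3*, *Usp29* and *Zim1* form a domain on chromosome 7 near its centromere. *Peg3* encodes a large zinc finger protein and is paternally expressed (ENSMUSG00000002265, chr7:6703892-6730431, minus strand). Its WT libraries held 722, 772 and 745 normalized counts and its KO libraries 488, 466 and 492. This was the tightest of the genes that passed, with a coefficient of variation of 3.36% in WT and 2.90% in KO, and the genotypes were far apart for that spread. The level fell from 746 ± 25.1 to 482 ± 14.0, to 64.5% of WT (log2 fold change -0.63, SE 0.12, adjusted p = 6.13e-06).

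*Usp29*, a paternally expressed gene for a deubiquitinating enzyme (ENSMUSG00000051527, chr7:6730578-6967219, plus strand), held 18.3, 24.7 and 13.7 normalized counts in WT and 19.8, 16.0 and 5.29 in KO, the last from 2 reads. The genotypes overlapped. The 95% interval of its log2 fold change, -0.38 (SE 0.56, adjusted p = 0.850), ran from -1.48 to 0.72 and so holds both no change and the fall of *Peg3*. *Zim1*, a maternally expressed zinc finger gene 7.44 kb from *Peg3* (ENSMUSG00000002266, chr7:6671269-6696450, minus strand), held 12.6, 19.8 and 13.7 in WT and 22.0, 17.2 and 15.9 in KO. Its libraries overlapped too (log2 fold change 0.27, SE 0.52, 95% interval -0.75 to 1.29, adjusted p = 0.891). At these few reads a change of the size seen in *Peg3* was not detectable in either gene.

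The ratio of 2 neighbours within a library needs no size factor. The log2 ratio of *Zim1* to *Peg3* reads was -5.78, -5.24 and -5.51 in WT and -4.43, -4.71 and -4.74 in KO, so the ratio was higher in every KO library than in any WT library. The fall of *Peg3* is part of this ratio, and *Zim1* itself did not pass. The difference was 0.88 (exact two-sided permutation p = 0.1, the smallest possible, and 0.3 after adjustment over the 3 ratios compared). For *Usp29* to *Peg3* the log2 ratio was -5.23 ± 0.29 (WT) and -5.12 ± 0.74 (KO), and the difference of 0.11 was within that spread (exact permutation p = 0.9, adjusted 0.9).

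Of 29 other genes within 500 kb of the *Peg3* domain, 14 were tested and 2 were lower, against 4.78% of all genes, with a median log2 fold change of -0.28 over the 14. With edgeR 3 passed, and 5 had an unadjusted p under 0.05 with DESeq2. *Zscan5b* went from 197, 123 and 49.3 normalized counts in WT to 35.6, 29.7 and 18.5 in KO (log2 fold change -2.12, adjusted p = 8.95e-06), and *Zfp772* from 158, 120 and 101 to 48.5, 26.7 and 42.3 (log2 fold change -1.74, adjusted p = 8.91e-07). Both encode zinc finger proteins, they lie 432 and 235 kb from the domain, and neither overlapped between genotypes. Both calls held in all 16 alternative fits. *Aurkc*, a meiotic kinase gene 28.1 kb from *Usp29*, had a log2 fold change of -0.73 that missed the threshold (adjusted p = 0.0690) and passed with the replicate block (-0.76, adjusted p = 0.00230). *Zim3*, which overlaps *Usp29* on the opposite strand, held at most 4 reads in any library.

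*Peg10* and *Sgce* start 98 bases apart on chromosome 6 and are both paternally expressed. *Peg10*, a gene derived from a retrotransposon and needed for the placenta (ENSMUSG00000092035, chr6:4747306-4760517, plus strand), held 1820, 1820 and 2535 normalized counts in WT and 2074, 1601 and 2603 in KO. Replicate 3 was the highest in both genotypes and stood further from the other replicates than the genotype means stood from each other. *Sgce*, which encodes a sarcoglycan of the cell membrane (ENSMUSG00000004631, chr6:4674350-4747207, minus strand), held 77.8, 65.0 and 65.7 in WT and 74.5, 64.1 and 63.4 in KO.

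Neither gene of the pair passed. *Peg10* had a log2 fold change of 0.02 (SE 0.17, 95% interval -0.31 to 0.36, adjusted p = 0.973) while that of *Sgce* was -0.05 (SE 0.27, 95% interval -0.57 to 0.48, adjusted p = 0.966). The log2 ratio of their reads was 4.85 ± 0.34 (WT) and 4.91 ± 0.35 (KO), a difference of 0.06 that was under the spread (exact permutation p = 0.8, adjusted 0.9). *Ppp1r9a*, an actin-binding neuronal gene 142 kb away that is maternally expressed in some tissues, was higher in KO (766 ± 119 to 1033 ± 144, log2 fold change 0.44, adjusted p = 0.0382), although its libraries overlapped. Within the replicate pairs its log2 difference was 0.48, 0.43 and 0.40, and with the replicate block it passed (log2 fold change 0.44, adjusted p = 5.67e-05). Its call was lost in 6 of the 16 alternative fits, with edgeR (adjusted p = 0.0933), with limma-voom and without WT replicate 1 or 2 or KO replicate 1 or 3, and the adjusted p reached 0.345.

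*Mest* was the most abundant of the 10 and, with all libraries used, the least moved. In some fits with libraries left out, *Peg10* or *Sgce* moved less. *Mest* encodes a protein with a hydrolase fold and is paternally expressed (ENSMUSG00000051855, chr6:30723547-30748465, plus strand). WT libraries held 5101, 5696 and 5605 normalized counts and KO libraries 5090, 5553 and 5922, and the ranges lay almost on top of each other. The 95% interval of its log2 fold change of 0.01 (SE 0.10, adjusted p = 0.975) ran from -0.18 to 0.21 and so ends well short of the fall of *Peg3*. *Copg2*, whose 3′ end overlaps that of *Mest* on the other strand, was at 1456 ± 197 (WT) and 1456 ± 189 (KO). *Mir335*, a microRNA gene inside *Mest*, was at 48.8 ± 23.3 and 48.3 ± 15.7. Of the 9 tested genes within 500 kb, 0 passed under DESeq2 and 1 under edgeR, and 1 had an unadjusted p under 0.05 with DESeq2.

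*Gnas* was the exception in direction. It encodes the alpha subunit of the stimulatory G protein Gs, which raises cyclic AMP, and its locus makes several transcripts of differing imprint that a count per gene adds up (ENSMUSG00000027523, chr2:174284320-174346744, plus strand). WT libraries held 1644, 1867 and 1728 normalized counts and KO libraries 2080, 2354 and 2347. The lowest KO library lay above the highest WT library. The level rose from 1746 ± 113 to 2260 ± 156, to 129% of WT (log2 fold change 0.37, SE 0.11, adjusted p = 0.0103). The call was lost without WT replicate 1 (log2 fold change 0.32, adjusted p = 0.141) or without KO replicate 2 (0.34, adjusted p = 0.149), and over all 16 alternatives the adjusted p ran from 7.82e-06 to 0.149.

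*Nespas*, the antisense transcript at the start of the *Gnas* locus, was at 399, 350 and 578 normalized counts in WT and 299, 275 and 381 in KO, with replicate 3 the highest of each genotype, so the genotypes overlapped (log2 fold change -0.47, SE 0.19, adjusted p = 0.132). Within the replicate pairs the log2 difference was -0.42, -0.34 and -0.60, and with the replicate block it passed (log2 fold change -0.44, SE 0.13, adjusted p = 0.00946). Whether counting used strand is not given in the sources used here, and without strand the reads of *Gnas* and *Nespas* where they overlap cannot be told apart. Of the 10 tested genes within 500 kb of *Gnas*, 0 passed under DESeq2 or edgeR, and 2 had an unadjusted p under 0.05 with DESeq2. With the replicate block 2 passed, *Nespas* and, 500 kb away, *Vapb* (log2 fold change 0.26, adjusted p = 0.0110), a gene of the endoplasmic reticulum.

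**Figure D3:**
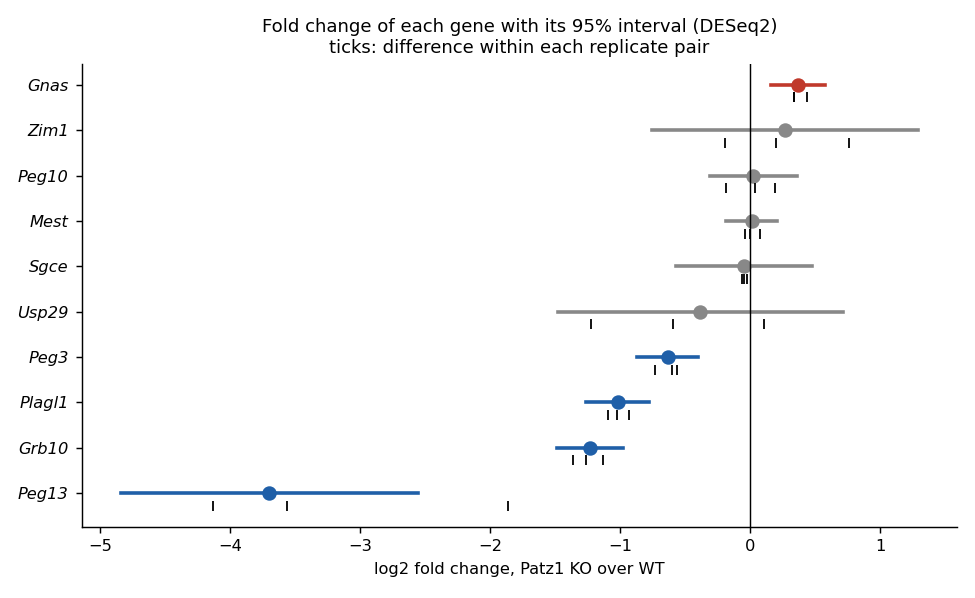
Log2 fold change of *Patz1* KO over WT (x axis) of each imprinted gene, with its 95% interval from DESeq2 as the bar and the differences within the 3 replicate pairs as ticks. Blue and red genes passed the test as lower and higher, grey genes did not. *Peg13* lies furthest out at -3.70, and the bars of *Usp29* and *Zim1* are the widest among the genes that did not pass.

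Per kb of annotated exon, the 10 genes span a wide range of levels, and the order shows what a fall means for each. In WT the mean per kb was 1386 normalized counts for *Mest*, 309 for *Peg10*, 156 for *Gnas*, 155 for *Plagl1*, 92.6 for *Grb10*, 56.0 for *Peg3*, 10.1 for *Peg13*, 6.55 for *Sgce*, 1.90 for *Zim1* and 1.05 for *Usp29*. Among neighbours in that order, the WT libraries overlapped between *Gnas* (147 to 167) and *Plagl1* (137 to 169) and in no other case. In KO the ranks of the first 6 stayed the same while their spacing did not. *Plagl1* at 76.3 lay far under *Gnas* at 202, and *Grb10* (34.6 to 41.2) now overlapped *Peg3* (34.9 to 36.9). *Peg13* dropped from rank 7 to rank 9, to 1.11 per kb, where it overlapped both *Zim1* (1.96 to 2.72) and *Usp29* (0.292 to 1.09). These levels use the exon lengths of GENCODE M21, which may not be those of the counted annotation.

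Across the surroundings of all 10 genes, 87 other genes lay within 500 kb, 55 were tested, and 4 passed, 2 lower and 2 higher. That share is close to the 7.49% of all genes, and the median log2 fold change of the 55 was 0.01. The count was 11 with the replicate number as a block (5 higher and 6 lower of 54 tested, where 14.6% of all genes passed), and 2 without WT replicate 1, without WT replicate 2 or without KO replicate 1.

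**Figure D4:**
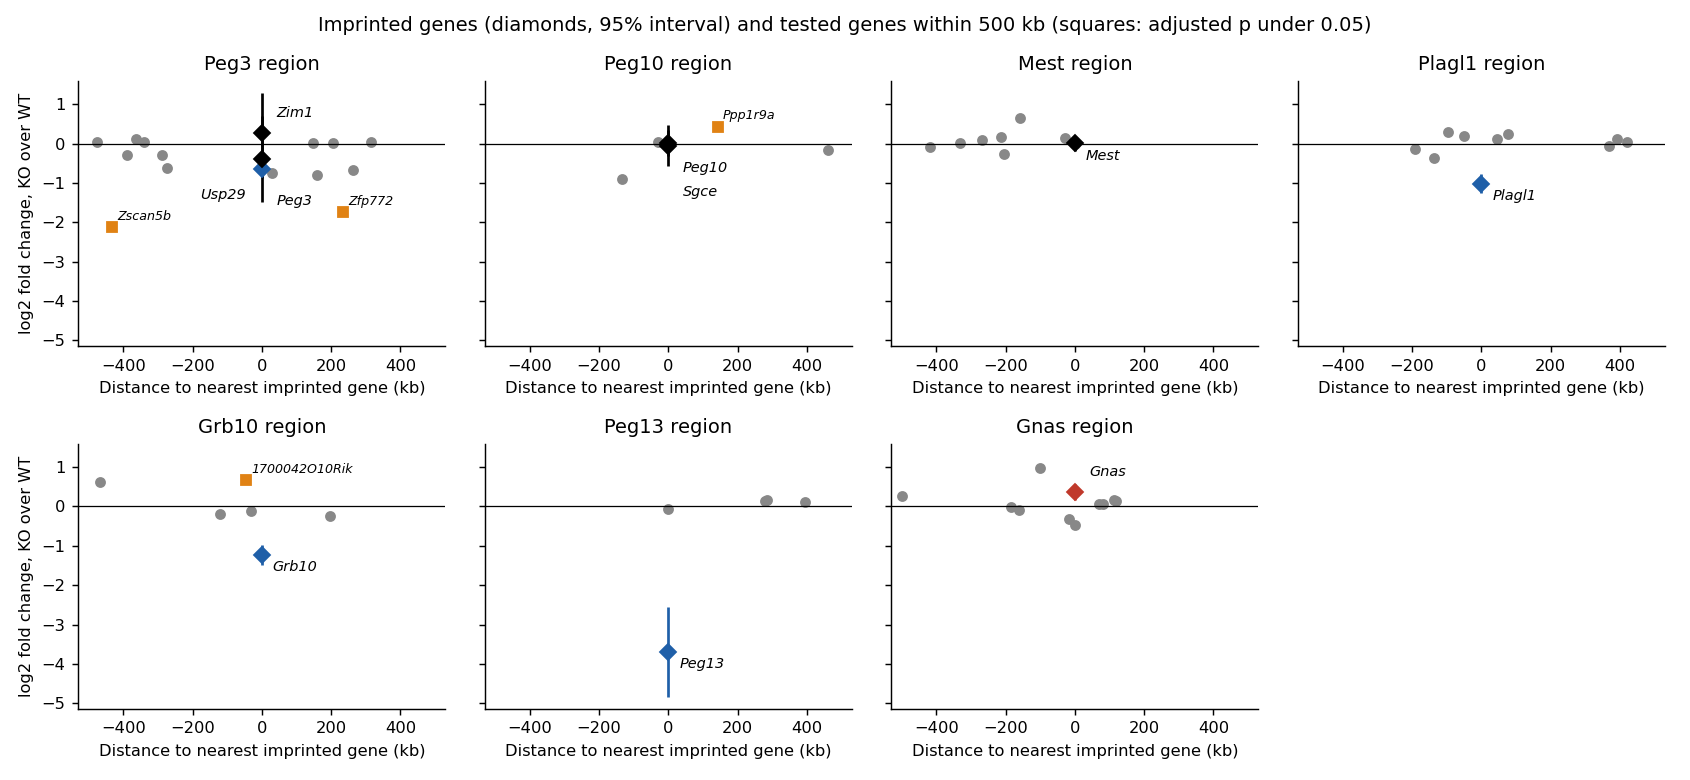
Log2 fold change of *Patz1* KO over WT (y axis) against distance to the nearest of the imprinted genes in kb (x axis, negative towards lower coordinates), for the tested genes within 500 kb. Diamonds at 0 are the imprinted genes with their 95% interval (blue lower, red higher, black not passed), orange squares are neighbours that passed and grey circles are neighbours that did not. *Peg13*, *Grb10* and *Plagl1* lie under all of their tested neighbours.

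Among 49 other imprinted genes, named from general knowledge, 36 were tested, 6 were higher and 2 were lower (2.70% and 4.78% of all genes), with a median log2 fold change of 0.01. The 6 with the smallest adjusted p were *Rian* (log2 fold change -0.92, a noncoding RNA) and *Mirg* (-0.68, a microRNA host), both lower, and *Igf2* (1.53, a fetal growth factor), *Cdkn1c* (1.45, a cell cycle inhibitor), *Sfmbt2* (0.70, a Polycomb-related gene) and *Phlda2* (0.77, a gene that limits placental growth), all higher. Of the 6 named, 5 passed in all 16 alternative fits, and *Phlda2* lost its call in 5 of them (edgeR, limma-voom, and fits that dropped WT replicate 1 or either deep KO library), with an adjusted p of up to 0.201. The other 2 of the 8, *Ppp1r9a* and *Dio3* (0.79), each lost their call in 6 of 16. Without WT replicate 1 the count of 8 became 5 (3 higher and 2 lower), with limma-voom it was 7 (4 higher and 3 lower), and with the replicate block 12 (7 higher and 5 lower), where 14.6% of all genes passed.

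Of 22 listed factors that set, keep or remove DNA methylation or otherwise act on imprints, all were tested and 2 passed, against 7.49% of all genes. *Dnmt3l*, a cofactor of de novo methylation, was higher (5407 ± 1066 to 7809 ± 1223, log2 fold change 0.53, adjusted p = 0.00953, libraries overlapping) while *Dppa3*, which protects methylation in the early embryo, was lower (50.7 ± 8.40 to 24.0 ± 2.53, log2 fold change -1.08, adjusted p = 0.0375). *Dnmt3l* lost its call in 6 of the 16 alternative fits, edgeR (adjusted p = 0.0863) and limma-voom among them, with an adjusted p of up to 0.568, and *Dppa3* in 7, with up to 0.312. The count of 2 was 4 with the replicate block, 1 with edgeR, limma-voom, without WT replicate 1 or without KO replicate 2. With DESeq2 it was 0 without WT replicate 2 (3 at an unadjusted p under 0.05), without KO replicate 1 (2) and without KO replicate 3 (2), as well as without both replicate 3 libraries (2).

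In the pathway of the *Gnas* product, 33 of 35 listed genes were tested and 4 passed, against 7.49% of all genes. *Gng5*, a G protein gamma subunit gene, was higher (log2 fold change 0.49), and *Adcy9* (-0.98), an adenylyl cyclase gene, and *Prkar2a* (-0.44) and *Prkar1a* (-0.29), regulatory subunit genes of protein kinase A, were lower. With edgeR 3 passed, all lower. Of the 16 alternative fits, the call of *Gng5* (adjusted p = 0.00452) was lost in 3, edgeR among them (adjusted p = 0.0545), that of *Adcy9* (adjusted p = 0.0378) in 5, where it reached 0.466, that of *Prkar2a* (adjusted p = 0.00975) in 4, where it reached 0.189, and that of *Prkar1a* (adjusted p = 0.0375) in 8. *Prkar1a* lies on chromosome 11, its value is close to the median of that chromosome, and with chromosome 11 centred it did not pass. The count was 2 without KO replicate 1, 1 without WT replicate 2 or KO replicate 3, and with DESeq2 0 without WT replicate 1 (3 at an unadjusted p under 0.05) or KO replicate 2 (6).

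In the insulin and IGF receptor pathway, on which the *Grb10* product acts, 32 of 34 listed genes were tested, 2 were higher and 2 lower (2.70% and 4.78% of all genes). *Grb7*, a close relative of *Grb10* on the same chromosome, rose against the trend of chromosome 11 (357 ± 22.9 to 552 ± 35.2, log2 fold change 0.62, adjusted p = 0.000199), and *Igf2* was higher as given above. *Akt1*, a kinase gene downstream of the receptors, was lower (log2 fold change -0.54, adjusted p = 0.00117), as was *Rptor* (-0.36, adjusted p = 0.0388), a subunit gene of the growth kinase complex mTORC1 that lies on chromosome 11. *Grb7* and *Igf2* passed in all 16 alternative fits. *Rptor* lost its call in 8 of them, with chromosome 11 centred among them, and *Akt1* without KO replicate 1 (adjusted p = 0.0647), where the count was 2.

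For each gene that passed, the 2 genes whose pattern over the 6 libraries was most alike in shape were found among at least 11523 genes by Pearson correlation of log2 levels, as a description, since the genotypes and the depths are shared by all points. The measure ignores the level and the size of the change. They were *Itgae* and *Patz1* for *Peg3* (r = 0.998 and 0.996), *Os9* and *Dazl* for *Plagl1* (0.998 and 0.997), *Arhgap30* and *Elovl6* for *Grb10* (both 0.998), *Rab11fip1* and *Abtb2* for *Peg13* (0.998 and 0.996) and *Foxr2* and *Dynlt3* for *Gnas* (0.998 and 0.997). The changes could be far apart in size, with log2 fold changes of -0.17 for *Elovl6* and -1.23 for *Grb10*, and of -0.34 for *Rab11fip1* and -3.70 for *Peg13*.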

How the data were processed

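RNA-seq counts of 3 WT and 3 *Patz1* KO E14 ESC libraries, grouped by their titles, were deposited by the authors as raw counts per gene symbol with no normalization. The methods name Bowtie 2, mm10 and DESeq2, and the submitters' processing notes list TopHat2 2.1.1, Bowtie2 2.3.1.0, featureCounts 1.6.2 and DESeq2. Gene annotation, use of strand and treatment of duplicate or multiply mapped reads were not given in the sources used here, so overlapping genes are uncertain.

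Here, DESeq2 1.42.0 (R 4.3.3) was fitted on all genes with genotype alone, median-of-ratios size factors, independent filtering at 0.1, and a two-sided Wald test at an adjusted p of 0.05. The study names the replicates biological. Floors of 3 counts cover counting error only. Positions came from GENCODE M21 for 23037 of 23420 symbols (1260 through an older symbol) and start sequences from RefSeq. Ratios and chromosome medians used log2 with a pseudocount of 1 and exact permutation tests.

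The genes, lists and tests were chosen with earlier results of these data known. Named are all 10 genes, *Patz1*, list or neighbouring genes that passed (at most 6 a list), genes sharing a start or transcript, and the 2 genes most alike in pattern. Other genes near a member (*Trappc9*, *Kcnk9*, *Ddc* and others) were named after their values were seen. Replicate numbers, shared in the titles, were used to pair the libraries. Deviations of same-numbered libraries from their genotype mean correlated at 0.469, 0.619 and 0.684 over 11524 genes. Correlations of unlike-numbered libraries are not given, and replicate 3 stood apart in depth in both genotypes. These values therefore do not show that replicates 1 and 2 were truly paired. Every 2 libraries differed by more than counting noise, with a chi-square of at least 9.50 per degree of freedom. Alternatives were edgeR 4.0.16, limma-voom (limma 3.58.1), TMM factors, other filters, the replicate block, centring of chromosome 11, left-out libraries, other distances and pseudocounts. Those for *Patz1* and the pathway and maintenance lists were added after seeing the data. The code was tested on simulated data. Proteins were not analysed here. A result on 1 gene near the 10 is not reported here.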

Additional observations from a re-analysis of the deposited data

How the results depend on the processing

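Of the 5 calls among the 10 genes, *Peg13*, *Grb10*, *Plagl1* and *Peg3* held in all 16 alternative fits, and the count ran from 4 to 5 when a library was left out. The log2 fold change of *Gnas* ran from 0.32 to 0.43 over left-out libraries, with the call lost in 2. With the replicate block, 11 neighbouring genes passed (8 with chromosome 11 centred as well), as did 12 other imprinted genes and 4 imprint maintenance factors, against 14.6% of all genes, and the block changed no call of the 10 genes. When a library was left out, the counts ran from 2 to 5 for neighbours, from 5 to 8 for other imprinted genes, from 0 to 2 for maintenance factors (1 with edgeR or limma-voom, and 0 without both replicate 3 libraries), from 0 to 5 for the Gs and cyclic AMP genes and from 2 to 4 for the insulin and IGF genes. Among the 10 genes and their ratios, signs turned for *Peg10*, *Sgce*, *Mest* and 2 ratios: *Peg10* ran from -0.15 to 0.19 (-0.06 without WT replicate 1 or 2), *Sgce* from -0.14 to 0.056 (0.0025 without KO replicate 2), *Mest* from -0.037 to 0.069 (-0.020 without both replicate 3 libraries), the *Peg10* to *Sgce* ratio from -0.14 to 0.24 and the *Usp29* to *Peg3* ratio from -0.16 to 0.53. *Usp29* (-0.70 to -0.13) and *Zim1* (0.10 to 0.53) kept their signs, but their values ranged widely. The causes were not tested. Depth limits *Usp29*, *Zim1* and *Peg13* most.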
